A study of Mus musculus with 16 samples.

Results

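*Serpina3c*, *Serpina3f*, *Serpina3g*, *Serpina3h*, *Serpina3i*, *Serpina3m* and *Serpina3n* are 7 genes of the mouse *Serpina3* cluster on chromosome 12. They were selected on values of these same libraries, namely a lower *Serpina3c* with isoproterenol and a lower *Serpina3n* with the sgRNA, so both of those differences are given as descriptions, with no p-value, and the calls of members in these contrasts are the result of that choice and support nothing. Of the 7 listed symbols, 6 were found by symbol among the 54347 rows of the count table. The row of *Serpina3h* carries no symbol and was found by its gene ID only. After the filter on low counts, 3 of the 7 genes were tested (*Serpina3c*, *Serpina3m* and *Serpina3n*), and the other 4 are given as counts.

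RNA-seq of polyadenylated RNA was performed on wt1-SAM brown adipocytes, a mouse brown fat cell line that carries the components for activating a gene at its promoter with CRISPR (the SAM system). All 16 libraries come from these cells, differentiated in medium with rosiglitazone, T3, dexamethasone, insulin, indomethacine and IBMX, transfected on day 4 with 250 ng of plasmid and harvested on day 7. The plasmid was either the empty sgRNA vector or the pSgRNA-MS2-2+7 plasmids, whose sgRNAs target the promoter of the long noncoding RNA gene *Gm15551*. Each was kept as control (ctrl) or given isoproterenol at 1 µM over the final 24 h, an agonist of β-adrenergic receptors, which gives 4 groups of 4 libraries, numbered as replicates 3, 4, 5 and 6. It is 1 cell line, and nothing in the labels says that the replicate numbers are separate derivations of it, so the p-values below measure the spread between these libraries.

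The libraries held 9053521 to 16546187 counts. A single ribosomal RNA gene took 11.7% to 51.8% of them, and levels are therefore given as CPM, counts scaled to a common library size by the trimmed mean of M-values. *Gm15551*, the gene the sgRNAs target, was higher with the sgRNA in 8 of 8 pairs of libraries that share a replicate number and a treatment. In replicates 3 to 6, its level was 1.08, 0.985, 0.390 and 1.35 CPM in empty ctrl and 3.92, 3.19, 1.42 and 3.34 CPM in sgRNA ctrl. With isoproterenol it was 0, 0.166, 0 and 0.421 CPM with the empty vector and 2.04, 1.47, 1.04 and 1.69 CPM with the sgRNA. The *Gm15551* levels thus follow the labels of the plasmids. All 8 adipocyte markers on a fixed list were detected and passed the filter, whereas 2 of 8 macrophage and leukocyte markers (*Cd68* and *Cd14*), 2 of 8 hepatocyte markers (*Apoa1* and *Fga*) and 1 of 5 endothelial markers did. The defining markers *Ptprc*, *Adgre1* and *Alb* had at most 3 counts in any library.

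Serpins are protease inhibitors that trap their target enzyme in a covalent complex after cleavage of an exposed loop. Human *SERPINA3* encodes α1-antichymotrypsin, a plasma protein made mainly by the liver in the acute-phase response. In the mouse this single gene is represented by a cluster of duplicated copies, whose reactive loops differ and whose targets therefore differ. Cytokines of the interleukin 6 family acting through STAT3, interleukin 1 and glucocorticoids are known inducers of acute-phase serpins, and *Serpina3n* is widely used as a marker of tissue inflammation and reactive astrocytes.

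The cluster genes lie side by side on chromosome 12 of GRCm38. *Serpina3c* is at chr12:104146382-104153870 on the minus strand. The other members are on the plus strand, *Serpina3f* at chr12:104214544-104221129, *Serpina3g* at chr12:104236245-104241939, *Serpina3h* at chr12:104247905-104253669, *Serpina3i* at chr12:104263122-104269372, *Serpina3m* at chr12:104338486-104394257 and *Serpina3n* at chr12:104406729-104414329. *Serpina3h* is annotated as a transcribed unprocessed pseudogene and the other 6 members as protein coding. *Serpina3k*, a neighbour that is no member, starts at the same base as *Serpina3m* and ends at 104346144, inside it.

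RefSeq promoter sequences (GRCm38.p6, 250 bases before and 50 after the start site) were found for 5 of the 7 members. The promoters of *Serpina3c* (chr12:104153823-104154122, minus strand) and *Serpina3n* (chr12:104406458-104406757, plus strand) are shown because the difference that chose *Serpina3c* was with isoproterenol and that of *Serpina3n* with the sgRNA, while their promoters are much alike, with 275 of 294 aligned bases identical (93.5%). Capitals mark bases that differ between them or have no partner in the alignment.
Serpina3c: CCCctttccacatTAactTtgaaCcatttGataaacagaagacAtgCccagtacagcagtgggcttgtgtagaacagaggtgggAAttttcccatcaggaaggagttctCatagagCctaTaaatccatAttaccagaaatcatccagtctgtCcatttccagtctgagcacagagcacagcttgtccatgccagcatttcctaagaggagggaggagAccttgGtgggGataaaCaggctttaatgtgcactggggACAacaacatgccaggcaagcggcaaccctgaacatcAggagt
Serpina3n: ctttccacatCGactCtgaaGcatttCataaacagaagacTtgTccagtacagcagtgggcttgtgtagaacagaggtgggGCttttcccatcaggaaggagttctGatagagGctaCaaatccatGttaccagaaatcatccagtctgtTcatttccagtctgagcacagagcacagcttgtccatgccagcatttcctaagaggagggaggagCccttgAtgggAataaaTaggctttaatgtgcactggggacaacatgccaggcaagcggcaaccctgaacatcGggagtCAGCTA

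The STAT word TTCNNNGAA, searched on both strands, was found in the promoters of *Serpina3f*, *Serpina3g* and *Serpina3i* and in 8.30% of all 32851 promoters of this length. The stretch around it is shown for these 3 genes, with the word in capitals, because the same stretch of *Serpina3c* and *Serpina3n* holds 5 of its 6 fixed letters. Counted from the first base of the word, both have the substitution C3A relative to it.
Serpina3f (chr12:104214407-104214447): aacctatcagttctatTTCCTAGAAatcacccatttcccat
Serpina3g (chr12:104236098-104236138): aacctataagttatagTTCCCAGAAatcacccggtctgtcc
Serpina3i (chr12:104263004-104263044): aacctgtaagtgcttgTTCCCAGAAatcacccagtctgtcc
Serpina3c (chr12:104153968-104154008, minus strand): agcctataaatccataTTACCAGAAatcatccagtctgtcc
Serpina3n (chr12:104406569-104406609): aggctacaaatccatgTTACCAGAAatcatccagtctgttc

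Among the other words searched on both strands, AGAACA, the core of a glucocorticoid response element, was found in *Serpina3c*, *Serpina3n*, *Serpina3f* and *Serpina3i* and in 18.97% of all promoters. The C/EBP word TTGCNNAA was found in *Serpina3f* (10.8% of all promoters) and the NF-κB word in *Serpina3g* and *Serpina3i* (8.46%). The cAMP response element TGACGTCA (1.79%) was in none of the 5 promoters. TATAAA was found in *Serpina3c*, starting 132 bases before its start site, and on the opposite strand in *Serpina3f*, and 13.6% of all promoters hold it. These matches describe letters in a window and no binding was measured.

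Per kilobase of the longest transcript, *Serpina3n* had the highest level of the cluster, with a median of 5.70 CPM per kb over the 16 libraries (range 1.76 to 79.4). *Serpina3m* followed with a median of 5.35 (1.56 to 31.2), and *Serpina3n* was above it in 15 of 16 libraries. *Serpina3c* had a median of 0.727 CPM per kb (0.205 to 2.67) and was below *Serpina3m* and *Serpina3n* in all 16 libraries. The next levels were a median of 0.113 for *Serpina3g* and 0.0376 for *Serpina3f*. *Serpina3i* and *Serpina3h* had a median of 0. The ranges of neighbours in this order overlapped throughout, and *Serpina3f*, *Serpina3h* and *Serpina3i* could not be ordered, since *Serpina3f* was above each of the other two in 8 libraries and below in 5. The order *Serpina3n*, *Serpina3m*, *Serpina3c*, *Serpina3g* was the same with the length of all merged exons.

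*Serpina3n* separated the libraries by replicate number more than by treatment. In replicates 3, 4, 5 and 6 it was at 9.69, 18.3, 11.8 and 164 CPM in empty ctrl, and at 11.7, 14.9, 14.8 and 107 CPM in empty isoproterenol. In sgRNA ctrl it was at 3.64, 5.47, 10.6 and 55.3 CPM, and in sgRNA isoproterenol at 5.51, 7.70, 11.6 and 48.2 CPM. The lowest library of replicate 6 (48.2 CPM) was above the highest of the 12 others (18.3 CPM), so replicate 6 stood apart whatever the plasmid or treatment. The libraries of replicate 6 held 72.5% of all *Serpina3n* counts, 4260 of 5877, with 23.9% of the scaled library size. As group means, *Serpina3n* was at 51.0 ± 75.4 CPM (SD, n = 4) in empty ctrl, 37.1 ± 46.6 in empty isoproterenol, 18.8 ± 24.6 in sgRNA ctrl and 18.2 ± 20.1 in sgRNA isoproterenol, with SDs larger than the means.

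*Serpina3m* showed the same division. It was at 4.57, 6.96, 10.5 and 50.5 CPM in empty ctrl and at 9.15, 8.63, 10.4 and 51.7 CPM in empty isoproterenol. With the sgRNA it was at 2.59, 4.26, 6.06 and 26.0 CPM in ctrl and at 4.26, 5.26, 9.13 and 31.8 CPM with isoproterenol. Replicate 6 was again above every other library (lowest 26.0, highest of the others 10.5 CPM), and replicates 3 to 5 overlapped one another.

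**Figure D1:**
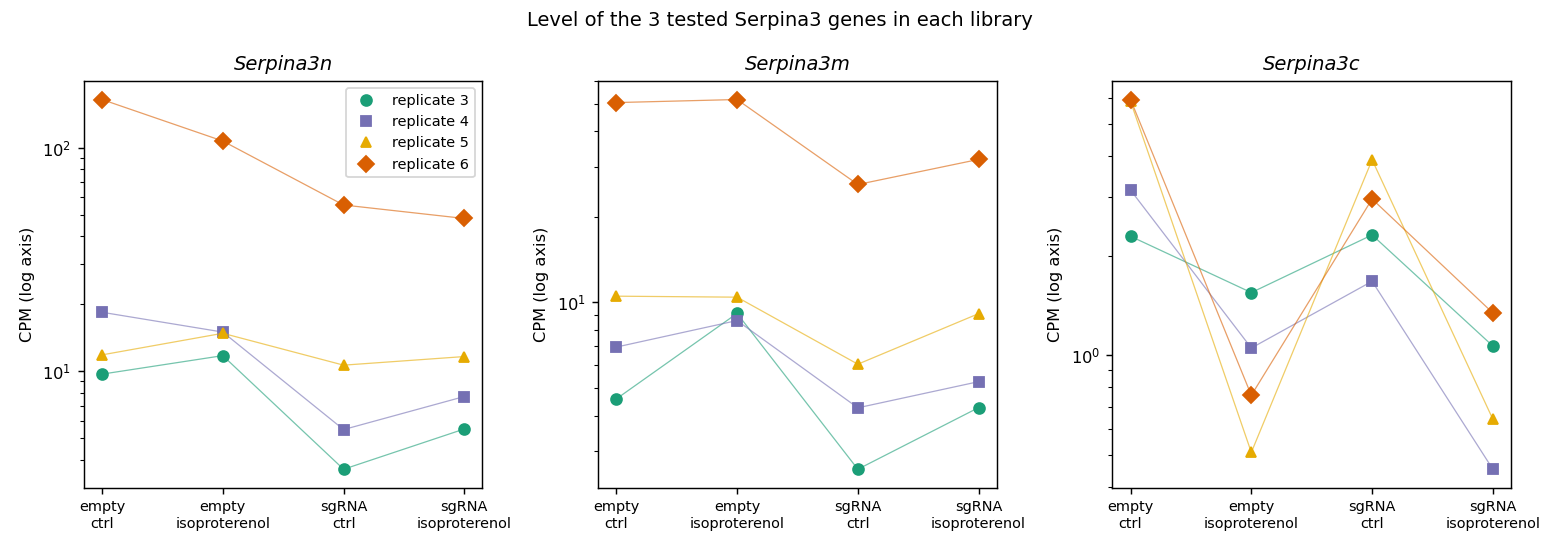
CPM (log axis) of *Serpina3n*, *Serpina3m* and *Serpina3c* in each of the 16 libraries by group, with 1 point per library and lines joining the libraries of 1 replicate number. Replicate 6 lies above all other libraries for *Serpina3n* (48.2 CPM and up) and *Serpina3m* (26.0 CPM and up), while *Serpina3c* is lower with isoproterenol in each replicate.

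The replicate number was tested jointly in edgeR's quasi-likelihood fit with the group in the model. *Serpina3m* (adjusted p = 4.86e-10) and *Serpina3n* (adjusted p = 5.64e-09) passed and *Serpina3c* did not (adjusted p = 0.275). These 2 of 3 tested members compare with 54.7% of the 13150 tested genes, so a difference between replicate numbers as such is common in these libraries. The size of the difference was less common. Replicate 6 against the mean of the other numbers gave a log2 fold change of 3.11 ± 0.15 (SE) for *Serpina3n* (adjusted p = 7.51e-10) and 2.60 ± 0.10 for *Serpina3m* (adjusted p = 4.13e-11), against 0.42 ± 0.29 for *Serpina3c* (adjusted p = 0.269), whose 95% interval ran from -0.20 to 1.05. In this contrast 9.31% of all tested genes were called higher and 4.79% lower, where a gene is called if its adjusted p is below 0.05 and its log2 fold change exceeds 0.5 in either direction. Only 30 of the 13150 tested genes had a larger fitted rise than *Serpina3n* and 67 a larger one than *Serpina3m*, while 1823 exceeded *Serpina3c*.

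The other replicate numbers also differed from one another in these genes. *Serpina3n* in replicate 3 was lower than in the mean of the others by a log2 fold change of -1.69 ± 0.20 (adjusted p = 0.000104), and *Serpina3m* by -1.44 ± 0.13 (adjusted p = 8.23e-06), where 3.29% of all genes were called lower. In replicate 4 the values were -0.86 ± 0.18 (adjusted p = 0.0032) and -0.95 ± 0.12 (adjusted p = 6.81e-05), with 5.70% of genes called lower. In replicate 5 they were -0.56 ± 0.19 (adjusted p = 0.0368) for *Serpina3n* and -0.21 ± 0.12 (adjusted p = 0.209) for *Serpina3m*, with 4.46% called lower. These means of the others include replicate 6, whose high level makes each value lower. Mean levels in replicates 3, 4 and 5 were 7.64, 11.6 and 12.2 CPM for *Serpina3n* and 5.14, 6.28 and 9.04 CPM for *Serpina3m*. Replicate 5 was thus the highest of them for both genes, with replicate 4 between replicates 3 and 5. The lower values of replicate 5 come from replicate 6 in the comparison. With the libraries of replicate 6 left out, the joint test was still passed by *Serpina3m* (adjusted p = 0.00579) and *Serpina3n* (adjusted p = 0.0333). *Serpina3c* passed none of the 4 comparisons.

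*Serpina3k*, whose annotated transcript shares its first base with *Serpina3m*, moved with replicate 6 as well. Its levels in replicates 3 to 6 were 0.241, 0.591, 1.04 and 11.8 CPM in empty ctrl, 0.515, 0.609, 0.891 and 6.73 in empty isoproterenol, 0.140, 0.304, 1.57 and 4.56 in sgRNA ctrl, and 0.267, 0.283, 0.721 and 2.97 in sgRNA isoproterenol. Its log2 fold change in replicate 6 was 3.56 ± 0.24. It passed the filter on low counts only through replicate 6, with 114, 80, 60 and 42 counts there and 2 to 21 elsewhere. This value is therefore a description, with no p-value. *Serpina3a* and *Serpina3b* had at most 3 counts in any library and *Serpina3j* was at 0 in all 16. None of the 14 other clade A serpins on a fixed list, among them the *Serpina1* genes of α1-antitrypsin, passed the filter.

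Some genes of other lists moved with replicate 6 too. Of 5 tested markers of preadipocytes and fibroblasts, 4 were called higher (*Col1a1*, log2 fold change 2.48 ± 0.09; *Pdgfrb*, 1.87 ± 0.18; *Ly6a*, 1.75 ± 0.12; *Col3a1*, 1.22 ± 0.16), with a list median of 1.75 beside 0.00 over all genes. The summed level of the 8 listed genes was 97.3 to 154 CPM in replicate 6 and 31.8 to 79.6 CPM in the others, and *Thy1* had at most 3 counts. Of 8 adipocyte markers 6 were called lower, with *Cebpa* at -0.86 ± 0.13 and *Plin1*, the lipid droplet coat protein, at -0.79 ± 0.10, and their list median was -0.57. *Pparg* and *Cidea* were not called, and 1 of the 8 estimates was above 0. The summed adipocyte list overlapped between replicate 6 (11762 to 18893 CPM) and the others (15298 to 26025 CPM). The part of cell composition or differentiation in the *Serpina3n* and *Serpina3m* levels was not tested, and in bulk RNA fewer cells of a type and less RNA per cell cannot be told apart.

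Of 22 tested genes on a list of signals upstream of acute-phase serpins, 8 were called higher in replicate 6, 1 was called lower and 13 were not called, with a list median of 0.31. The receptor genes *Il1r1* (1.12 ± 0.09), *Il6st*, the shared subunit of interleukin 6 family receptors (0.97 ± 0.06), and *Osmr*, the oncostatin M receptor (0.88 ± 0.14), were among them. So were the C/EBP factor gene *Cebpd* (1.07 ± 0.12) and the glucocorticoid-responsive gene *Tsc22d3* (0.86 ± 0.05). *Cebpb* was the gene called lower, at -0.65 ± 0.18. Of 9 tested serpins of other clades, 4 were called higher, led by *Serpini1*, neuroserpin (1.80 ± 0.22), and *Serpinb1a* (1.25 ± 0.40). *Serpinb1a* passed the filter on low counts only through replicate 6, with 11, 12, 17 and 17 counts there and 1 to 13 elsewhere. Its call is therefore a description and supports nothing. None of the 3 tested proteases of the clade A3 target list was called, nor were the 2 macrophage, 2 hepatocyte and 1 endothelial markers that were tested.

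**Figure D2:**
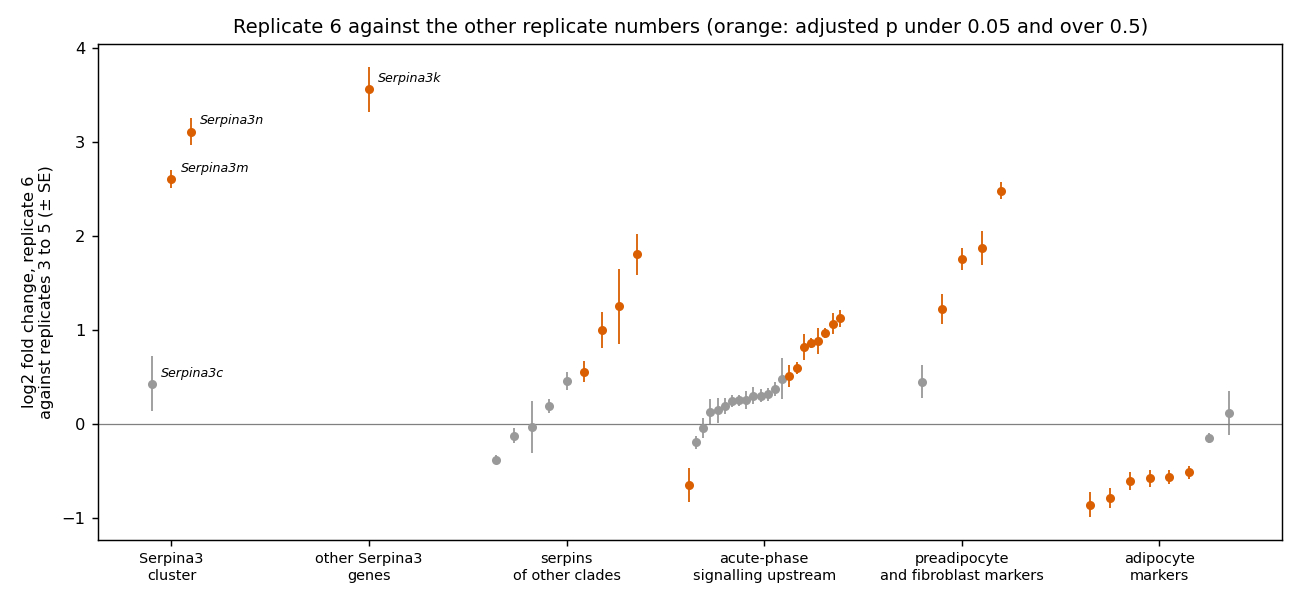
log2 fold change (± SE) of replicate 6 against the mean of replicates 3, 4 and 5 for the tested genes of 6 lists, with 1 point per gene and orange where called. *Serpina3n* (3.11) and *Serpina3m* (2.60) lie above all genes of the other lists except *Serpina3k*, and *Serpina3c* (0.42) is not called. *Serpina3k* (3.56) passed the filter on low counts only through replicate 6, and its value is a description.

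With the sgRNA plasmids, *Serpina3n* was lower than with the empty vector in 8 of 8 pairs of the same replicate number and treatment, and *Serpina3m* likewise in 8 of 8. The pairs of *Serpina3n* were 1.11-fold to 3.35-fold lower (median 2.17). Within replicates 3, 4 and 6 the mean log2 ratio was -1.25, -1.35 and -1.36, while in replicate 5 it was -0.25. For *Serpina3m* the pairs were 1.14-fold to 2.15-fold lower (median 1.69), with mean log2 ratios of -0.96, -0.71, -0.49 and -0.83 in replicates 3 to 6. The division was therefore present in replicate 6 and in the others, and weakest in replicate 5 for both genes. The groups themselves overlapped, since each holds a replicate 6 library and 3 lower ones. The share of counts taken by the ribosomal RNA gene was also lower with the sgRNA in 8 of 8 pairs, at 19.7% to 51.8% with the empty vector and 11.7% to 28.7% with the sgRNA. With that gene left out of the fit the unblocked sgRNA difference of *Serpina3n* was -1.23 and that of *Serpina3m* -0.77.

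As fitted over all libraries without a replicate term, the sgRNA difference was -1.23 ± 0.76 (SE, log2) for *Serpina3n*, -0.78 ± 0.64 for *Serpina3m* and -0.40 ± 0.30 for *Serpina3c*. Leaving out 1 library of replicate 6 moved these values to between -1.98 (without sgRNA ctrl) and -0.27 (without empty ctrl) for *Serpina3n* and between -1.35 and -0.12 for *Serpina3m*. None of the 3 was called, as was none of the 13150 genes (0%), where 437 were below 0.05 before adjustment. Once the fit took the replicate number as a block, the differences were -1.09 ± 0.15, -0.75 ± 0.10 and -0.44 ± 0.28, and *Serpina3n* and *Serpina3m* were called, beside 0.221% of genes called lower and 0.0456% called higher. *Serpina3n* was chosen for this difference, and *Serpina3m* was listed with results of this contrast known, so these calls are a description. Leaving out the empty ctrl library of replicate 6 turned the unblocked sgRNA difference in ctrl cells from -1.43 to 0.49 for *Serpina3n* and from -0.88 to 0.43 for *Serpina3m*. With all 4 libraries of replicate 6 left out, the blocked fit called neither gene, and the differences were -0.93 ± 0.18 for *Serpina3n* and -0.70 ± 0.14 for *Serpina3m*.

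In the blocked sgRNA comparison, *Il6*, the main cytokine inducer of acute-phase serpins, was called lower (-1.01 ± 0.20), and *Ly6a* of the preadipocyte list was called lower (-0.74 ± 0.11). *Cidea*, a brown adipocyte lipid droplet gene, was called higher (1.05 ± 0.21). They were the called genes among the lists other than the cluster genes, with 1 of 22, 1 of 5 and 1 of 8 tested. Without the block no gene of any list was called. Whether these genes have a part in the *Serpina3n* level was not tested.

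Isoproterenol went with a lower *Serpina3c* in 8 of 8 pairs. *Serpina3c* was at 2.29, 3.15, 5.84 and 5.92 CPM in empty ctrl (38, 48, 45 and 57 counts) and at 1.55, 1.05, 0.509 and 0.757 CPM in empty isoproterenol (12, 19, 4 and 9 counts). With the sgRNA it was at 2.31, 1.67, 3.89 and 2.96 CPM in ctrl (33, 22, 52 and 39 counts) and at 1.07, 0.453, 0.641 and 1.34 CPM with isoproterenol (12, 8, 8 and 19 counts). The ctrl and isoproterenol libraries did not overlap with either plasmid, which describes the gene chosen for this difference. How many of all genes separate in this way was not counted. The pairs were 1.48-fold to 11.5-fold lower (median 3.35), and the mean log2 ratio was -0.84 in replicate 3, -1.73 in replicate 4, -3.06 in replicate 5 and -2.06 in replicate 6.

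The means were 4.30 ± 1.86 CPM (SD, n = 4) in empty ctrl, 0.966 ± 0.446 in empty isoproterenol, 2.71 ± 0.948 in sgRNA ctrl and 0.875 ± 0.403 in sgRNA isoproterenol. The fitted difference was -1.88 ± 0.30 (SE, log2) without and -1.82 ± 0.27 with the replicate block, and *Serpina3c* was the 1 member called of 3 in the fit, beside 1.32% of all genes called lower. As *Serpina3c* was chosen for this difference, the call is a description. With 4 to 57 counts a library, single *Serpina3c* values carry a wide counting error. Of the variation of its log2 CPM, 71.7% went with isoproterenol and 4.90% with the replicate number. For *Serpina3n* these shares were 0.0771% and 83.8%, and for *Serpina3m* 2.51% and 86.8%.

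*Serpina3n* and *Serpina3m* did not share the lower level with isoproterenol. *Serpina3m* was higher in 7 of 8 pairs, with pair ratios of 0.992 to 2.00 and a fitted difference of 0.28 ± 0.64, or 0.35 ± 0.10 with the block. *Serpina3n* was higher in 5 and lower in 3 of 8 pairs (ratios 0.652 to 1.51), and its fitted difference was -0.24 ± 0.76, or -0.03 ± 0.15 with the block. The sign of its unblocked value rested on replicate 6, without which it was 0.19. *Serpina3n* thus was lower with isoproterenol in both pairs of replicate 6 and in 1 pair of the others.

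The list calls with isoproterenol given here are from the fit without the block unless the block is named. The unblocked fit called 349 genes, where the blocked fit called 749. In that unblocked fit the upstream list had 2 of 22 genes called, both higher, *Il6* (1.92 ± 0.30) and *Osmr* (0.97 ± 0.26). This stood beside 1.33% of all genes called higher, and the list median was 0.11 (all genes 0.00). *Fkbp5* of this list was not called there, and the blocked fit called it lower. It was at 79.2, 70.9, 142 and 137 CPM in empty ctrl and 40.5, 51.4, 98.0 and 89.7 CPM in empty isoproterenol. With the sgRNA it was at 77.7, 71.8, 159 and 153 CPM in ctrl and 51.9, 54.1, 87.9 and 92.4 CPM with isoproterenol. Among serpins of other clades, *Serpinb6a* was called higher (0.82 ± 0.16). *Ctsl*, a lysosomal cysteine protease, was called higher (0.55 ± 0.10), 1 of 3 tested of the protease list. Of the adipocyte markers, *Adipoq* (-1.06 ± 0.18) and *Lipe* (-0.69 ± 0.15) were called lower, 2 of 8. With the block, *Plin1* and *Cebpa* were also called lower and *Cidea* was called higher, which makes 5 of 8. No preadipocyte marker was called without the block, and *Ly6a* was called higher with it. *Ly6a* of that list was at 18.8, 21.0, 5.71 and 58.5 CPM in empty ctrl and 43.8, 59.5, 11.8 and 81.8 CPM in empty isoproterenol. With the sgRNA it was at 10.3, 15.4, 2.77 and 31.2 CPM in ctrl and 19.9, 39.1, 8.89 and 54.9 CPM with isoproterenol. Both tested macrophage list genes, *Cd68* (0.91 ± 0.17) and *Cd14* (0.82 ± 0.15), were called higher, and the summed level of that list was 9.06 to 17.6 CPM in ctrl and 17.5 to 28.1 CPM in isoproterenol libraries, with *Ptprc* and *Adgre1* at no more than 3 counts. *Apoa1* of the hepatocyte list was called lower (-1.40 ± 0.38), where 6 of the 8 listed genes had at most 3 counts in any library. *Apoa1* passed the filter on low counts only through ctrl libraries, with 8 to 26 counts there and 0 to 7 with isoproterenol. Its call is therefore a description and supports nothing. The part of these genes in the *Serpina3c* difference was not tested.

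The interaction asks whether the isoproterenol difference depends on the plasmid. It was 0.49 for *Serpina3c* (95% interval -0.79 to 1.78), 0.21 for *Serpina3m* (-2.48 to 2.91) and 0.41 for *Serpina3n* (-2.80 to 3.61) on the log2 scale, and edgeR called none of the 3, as it called 0% of all genes (52 genes were below 0.05 before adjustment). In the blocked fit the intervals were -0.79 to 1.56, -0.26 to 0.59 and -0.29 to 1.01, and again no gene was called. The isoproterenol difference of *Serpina3c* within each plasmid, again a description, was -2.13 ± 0.43 with the empty vector and -1.63 ± 0.43 with the sgRNA. The unblocked fit called the first, beside 0.373% of genes called lower, and not the second, beside 0.297%. The blocked fit called both (-2.01 ± 0.38 beside 2.15% of genes called lower, and -1.63 ± 0.38 beside 1.83%), as did DESeq2 without the block. The call with the empty vector was lost in 8 of 20 unblocked fits that left out a library or a replicate number, and in none of the blocked fits that left out number 3, 4, 5 or 6. The blocked call with the sgRNA was lost without number 4 (-1.57 ± 0.44) and without number 5 (-1.33 ± 0.40).

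**Figure D3:**
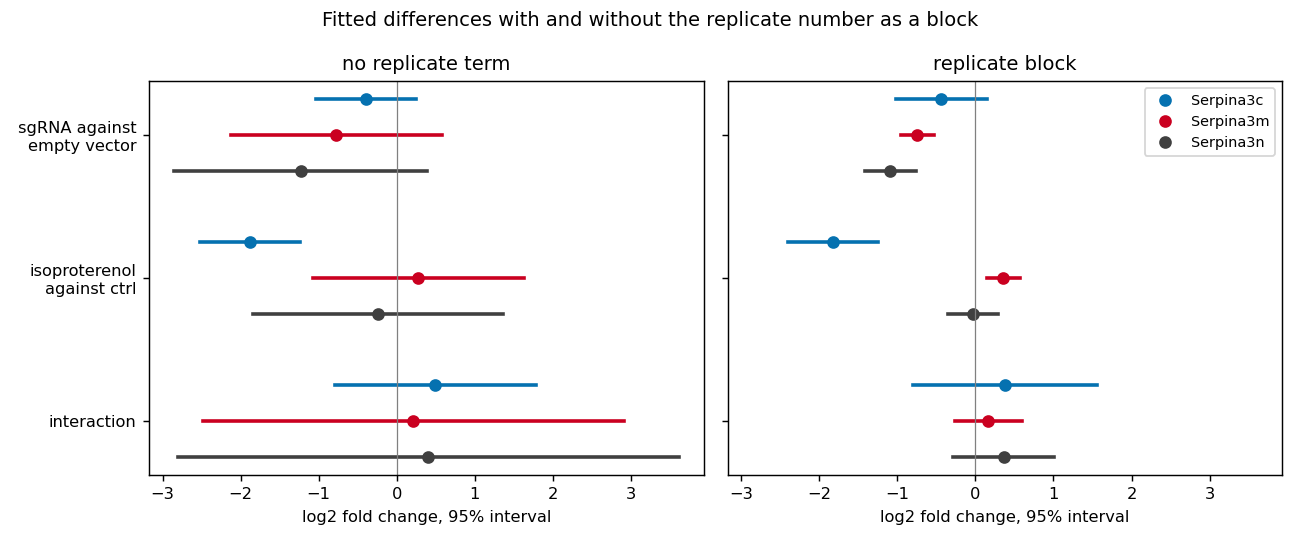
Fitted log2 fold changes with 95% intervals for *Serpina3c*, *Serpina3m* and *Serpina3n* in 3 contrasts, without (left) and with (right) the replicate number as a block, on the same axis. The intervals of *Serpina3n* and *Serpina3m* narrow with the block, as for the sgRNA difference of *Serpina3n* (-1.23 ± 0.76 to -1.09 ± 0.15), while those of *Serpina3c* change little.

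The 4 members below the filter had at most 22 counts in a library, and a count of 0 allows up to 3 counts, which is 0.166 to 0.390 CPM depending on the library. *Serpina3g*, known for its expression in activated haematopoietic cells, had 77 counts in all and was at 0 in 5 libraries. In replicates 3 to 6 it had 0, 4, 11 and 21 counts in empty ctrl, 0, 0, 5 and 16 in empty isoproterenol, 0, 3, 2 and 8 in sgRNA ctrl and 2, 2, 3 and 0 in sgRNA isoproterenol. *Serpina3i* had 42 counts in all, 38 of them (90.5%) in replicate 6 with 22, 9, 4 and 3 counts in the order of groups just given, and at most 2 in any other library. *Serpina3f* had 34 counts, 17 of them in replicate 6 and at most 4 in any other library. The pseudogene *Serpina3h* had 16 counts, 10 of them in replicate 6, where its empty ctrl library had 7.

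All 4 had their highest count in the empty ctrl library of replicate 6, which is also where *Serpina3n* and *Serpina3k* were highest. With the sgRNA, *Serpina3f* was lower in 7 of 8 pairs and higher in 1, and *Serpina3i* was lower in 5 and equal at 0 counts in 3. *Serpina3g* was lower in 5 pairs, higher in 2 and equal in 1, and *Serpina3h* was lower in 3, higher in 2 and equal in 3. Pairs here compare CPM. In the replicate 4 isoproterenol pair of *Serpina3h*, taken as higher with the sgRNA, both libraries had 1 count. With isoproterenol, *Serpina3i* was lower in 5 pairs and equal in 3, and *Serpina3g* was lower in 5, higher in 2 and equal in 1. *Serpina3f* was lower in 4 and higher in 4, and *Serpina3h* was lower in 3, higher in 3 and equal in 2. Differences between groups in these 4 genes were not tested, and no fold change is given for them. The 0 counts of *Serpina3g* in replicate 6 with sgRNA and isoproterenol allow up to 0.212 CPM there.

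**Figure D4:**
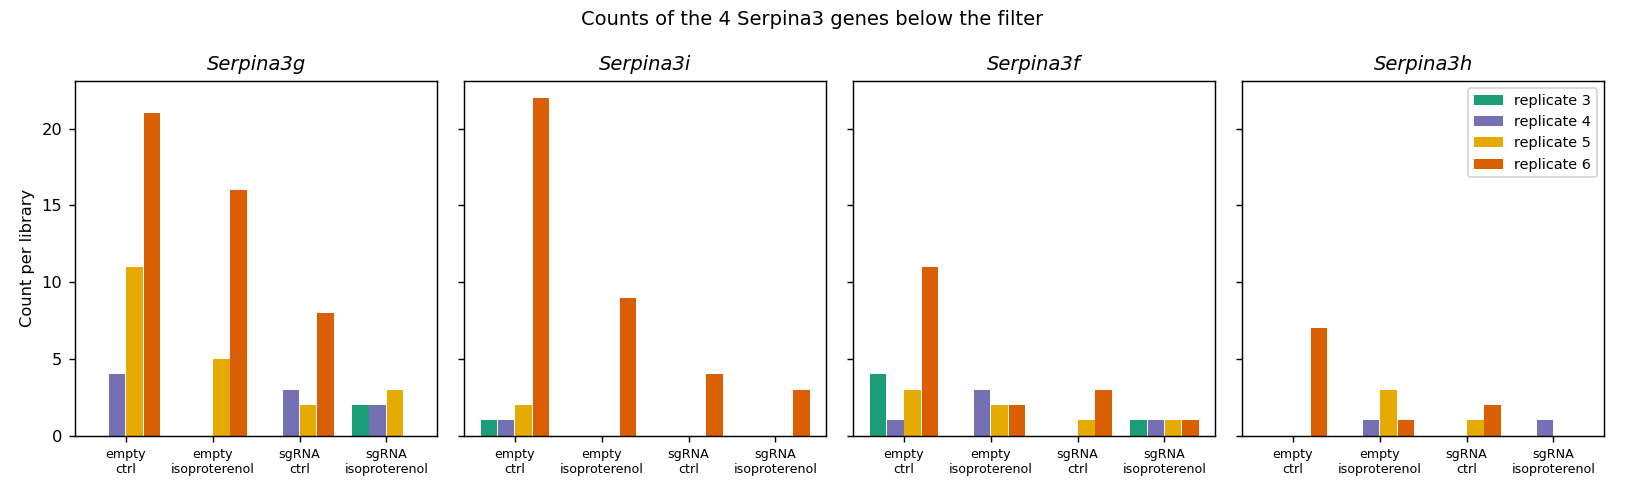
Counts of *Serpina3g*, *Serpina3i*, *Serpina3f* and *Serpina3h* in each library by group, with 1 bar per library coloured by replicate number. The tallest bars are those of replicate 6 in empty ctrl, with 21, 22, 11 and 7 counts.

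Several of these genes share sequence, which limits how far their counts can be told apart. The reads were paired and 50 bases long each. Of the 50-base words in the transcripts of each gene, 4.25% in *Serpina3c*, 6.90% in *Serpina3n*, 10.6% in *Serpina3f*, 15.5% in *Serpina3g*, 15.9% in *Serpina3i*, 19.1% in *Serpina3m* and 21.9% in *Serpina3h* were also found in another gene. These words take each read alone and leave out what the other read of its pair can tell apart. *Serpina3c* and *Serpina3n* share 1.16% and 1.24% of theirs with each other, so most of their sequence tells them apart although their promoters are alike. *Serpina3m* shares 15.96% with *Serpina3k*, and *Serpina3h* shares 15.8% with *Serpina3i* and 14.1% with *Serpina3g*. The counts of the low members and the split between *Serpina3m* and *Serpina3k* are therefore uncertain.

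**Figure D5:**
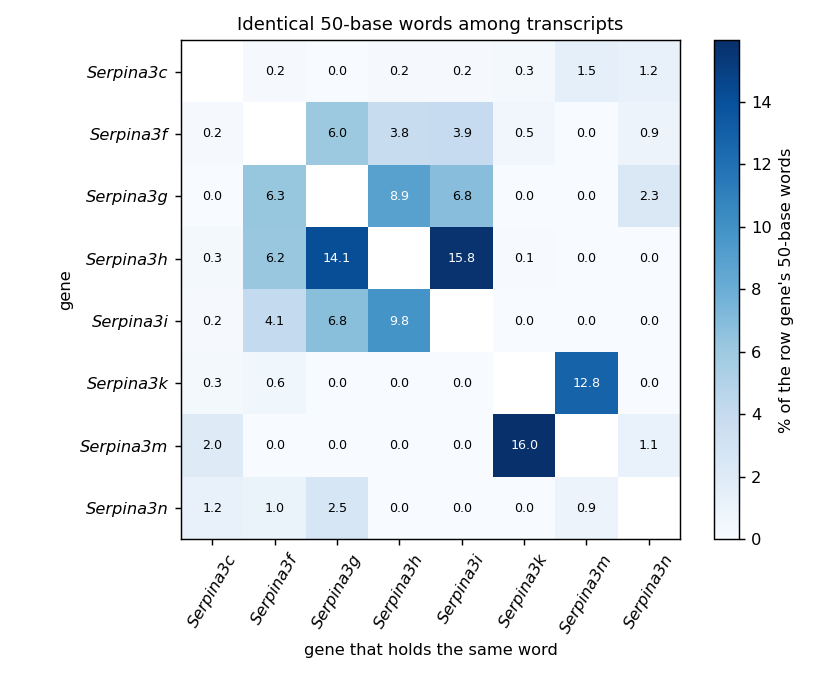
Share of each gene's 50-base transcript words (row, in %) that are found identically in another gene of the cluster (column). *Serpina3m* and *Serpina3k* (15.96% and 12.8%) and the block of *Serpina3f*, *Serpina3g*, *Serpina3h* and *Serpina3i* share the most.

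Over the 16 libraries, log2 CPM of *Serpina3m* and *Serpina3n* had a Pearson r of 0.97, and of 0.86 over the 12 libraries without replicate 6. The ratio of their CPM values lay between 1.12 and 3.25 in all libraries, highest in the empty ctrl library of replicate 6. *Serpina3c* had an r of 0.11 with *Serpina3m* and 0.20 with *Serpina3n*. With the members themselves left out, of 12107 genes with a mean of at least 1 CPM those most like *Serpina3n* were *C4b*, a complement component (r = 0.96), *Adam9*, a metalloprotease (0.96), *Serpina3k* (0.95), *Ccn4* (0.94) and *Top2a*, a topoisomerase of dividing cells (0.94). Those most like *Serpina3c* were *Strip2* (0.89), *Ubd*, a ubiquitin-like modifier (0.87), *Ganc* (0.86), *Anxa8* (0.86) and *Ahcyl2* (0.85). With the group means removed, their r with *Serpina3c* was 0.52, 0.48, 0.67, 0.61 and 0.18, so these values largely repeat the difference that chose *Serpina3c*. For the 5 genes named beside *Serpina3n* it was 0.95 to 0.97 after the same step, which keeps the high level of replicate 6. *Serpina3k* reached the mean of 1 CPM only through replicate 6, where *Serpina3n* was also high, so its place here is a description. Without replicate 6 the r of *Serpina3n* with *Serpina3k* was 0.70, and over all libraries the Spearman rho of *Serpina3n* with *Top2a* was 0.79. These values describe 16 libraries that share their replicate numbers and treatments and all genes of a library share its depth.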

How the data were processed

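The authors filtered the reads with cutadapt, quantified them with salmon against the GENCODE M22 transcriptome (GRCm38) and deposited estimated counts per gene as whole numbers, which can split reads between similar genes. The 16 libraries were grouped from their labels (plasmid, treatment, replicate number). In R 4.3.3, edgeR 4.0.16 (filterByExpr, trimmed mean of M-values, quasi-likelihood fit on the group, Benjamini-Hochberg over 13150 genes) gave fold changes with SEs, and a gene was called if its adjusted p was below 0.05 and its log2 fold change exceeded 0.5 in either direction. The replicate number was tested jointly with the group in the model. Same-numbered libraries deviated together (correlations 0.22 to 0.61 across genes after removing group means, every one over 0.1, with a median of 0.41, against -0.51 to 0.52 and a median of -0.21 between libraries of another number and group), so the numbers were treated as pairing them and a fit with the replicate block stands beside the main fit. Alternatives were DESeq2 1.42.0, upper-quartile scaling, no filter, the ribosomal RNA gene left out and each library or number left out. Coordinates and shared words came from GENCODE M21 of the same build. The fit without the block was tested on data simulated with changes in the isoproterenol libraries only and no difference between replicate numbers. The blocked contrasts and the recovery of an sgRNA difference were not tested this way. The 7 members in all libraries, up to 5 called genes per list with the largest fold changes, and the 5 genes most like *Serpina3c* and *Serpina3n* were named by rule. The members and lists were chosen with earlier results of these data known. A result of 1 listed gene is not reported here.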

Additional observations from a re-analysis of the deposited data

Results flagged for a closer look

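A library stood far from the other 3 of its group, by Dixon's criterion at the 95% level (gap to the nearest library over the range of the group), in 13 of 28 member and group combinations, and in 12 of them it was the replicate 6 library. Chance gives about 1 in 20 for values without ties, a rate that is no baseline for 5 of the 13, where 3 libraries were at 0 and any count in the remaining library gives a ratio of 1.00. The 28 combinations are not independent, since each group holds a replicate 6 library, and 54.7% of all tested genes differed by replicate number. *Serpina3n* had ratios of 0.944 in empty ctrl, 0.966 in empty isoproterenol, 0.865 in sgRNA ctrl and 0.857 in sgRNA isoproterenol. *Serpina3m* had 0.871, 0.958 and 0.852 in the first 3 of these groups. *Serpina3i* had 0.910 in empty ctrl and 1.00 in each of the other 3 groups, where all libraries but that of replicate 6 were at 0. *Serpina3h* had 1.00 in empty ctrl, with 7 counts in replicate 6, and 1.00 in sgRNA isoproterenol, where a single count in replicate 4 set it apart. *Serpina3c*, *Serpina3f* and *Serpina3g* had no such library in any group.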

How the results depend on the processing

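The isoproterenol difference that chose *Serpina3c* was -2.21 to -1.53 with a library or number left out, and 1 member was called in each alternative, which is a description and no support. The interaction stayed at 0 members. The sgRNA call went from 0 members to 2 (*Serpina3n*, *Serpina3m*) with the replicate block; with the block and number 3, 4, 5 or 6 left out, chosen after seeing the data, it was 2, 1, 2 and 0, while the differences lay between -1.31 and -0.93 for *Serpina3n* and between -0.82 and -0.70 for *Serpina3m*. Over all genes the sgRNA calls were 0, or 35 with the block, 10 with DESeq2 and 10 with no filter; the isoproterenol calls were 349, or 749 with the block, 120 without replicate 3 and 170 without replicate 4; the replicate calls were 7195, or 3787 without replicate 6. The replicate number called 2 members, or 4 with no filter on low counts (*Serpina3g* and *Serpina3i* added), and 2 to 3 with a library left out.

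Signs turned with a library or number left out in the sgRNA difference in ctrl cells (*Serpina3n* -2.93 to 0.49, *Serpina3m* -2.04 to 0.43) and with isoproterenol (*Serpina3n* -2.17 to 0.41, *Serpina3m* -1.69 to 0.44), in the isoproterenol difference (*Serpina3n* -0.95 to 0.73, *Serpina3m* -0.27 to 0.93) and in the interaction (*Serpina3c* -0.075 to 0.80, *Serpina3m* -1.10 to 1.38, *Serpina3n* -1.52 to 1.90). The *Serpina3m* and *Serpina3n* extremes came from leaving out 1 replicate 6 library of an arm, and the cause was not tested. With the replicate block and number 6 left out, the *Serpina3n* isoproterenol difference was 0.19 and the *Serpina3c* interaction -0.15. The replicate 6 differences of *Serpina3n* (2.85 to 3.30) and *Serpina3m* (2.38 to 2.85) kept their calls. Counts of *Serpina3c* (4 to 57) and of the 4 members below the filter limit what depth can show.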
